A study of Mus musculus with 6 samples.

Results

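The nuclear genes for the proteins of the mitochondrial ribosome were followed in whole spleen. They were taken as the protein-coding rows of the gene count table whose symbol starts with Mrpl or Mrps followed by a number, which gave 77 genes of 31771 identifiers. Of 78 such genes in the GENCODE M21 annotation of GRCm38, Mrpl53 was not analysed here. RNA came from pieces of spleen of 6 mice labelled as C57BL/6. The 3 mutants carried the transgenes VEC-Cre (Cre under the VE-cadherin promoter), SB Transposase (of Sleeping Beauty) and onc2, a Sleeping Beauty transposon, and the 3 controls were labelled WT. Sleeping Beauty is a DNA element that its transposase moves to new places in the genome, where onc2 can switch genes on or break them, so each mutant animal carries insertions of its own. VE-cadherin is an adhesion protein of endothelium, and Cre under its promoter also marks blood cells descended from embryonic endothelium. The study looked at spleen composition as one step of a screen around Pi4ka, which codes for a lipid kinase. The sources used here do not give the age or litter of the animals.

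Mitochondria carry a ribosome of their own, built from RNAs of mitochondrial DNA and from proteins that are encoded in the nucleus, made in the cytosol and imported. It makes the few membrane proteins of the respiratory chain and ATP synthase that mitochondrial DNA encodes. Mrpl genes code for the large subunit, which joins amino acids, and Mrps genes for the small subunit, which reads the mRNA, with exceptions: Mrps30 and Mrps18a sit in the large subunit, and Mrps36, also called Kgd4, is now assigned to the 2-oxoglutarate dehydrogenase complex. Some of the proteins descend from the bacterial ribosome and others are found only in mitochondria. Among blood cells, dividing precursors are known to rely on mitochondrial translation.

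A small share of the mitochondrial ribosomal protein genes rose in the mutant spleens and none was called lower, and 69 of the 77 did not pass the test. With an adjusted p under 0.05 as the threshold, 8 of the 77 members rose and 0 fell, against 5.08% of all 19573 genes tested that rose and 6.9% that fell. The 8 were Mrpl20, Mrps36, Mrpl42, Mrpl35, Mrpl51, Mrpl17, Mrps24 and Mrpl57, which make up 10.4% of the members and rose 1.60-fold to 2.10-fold. The fitted log2 fold change was above 0 for 75 of the 77 members, with a median of 0.49 (1.41-fold), against a median of 0.10 over all genes tested. These calls are from edgeR. The 0 lower members included 0 at an unadjusted p under 0.05, and DESeq2 and limma-voom each gave 0 lower as well.

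The libraries held 72902118 to 79258116 counts, and every member had 586 to 18190 counts in each library, so all 77 passed the filter on low counts and none owes its place to 1 group alone. Over all genes, the biological coefficient of variation was 73.2% among mutants and 17.1% among controls. Xist, the RNA that coats the silenced X chromosome, was at 1513 and 580.1 CPM (counts for every 1000000 counts of the library) in mutants 1 and 2, against 0.586 in mutant 3 and 0.423 to 0.663 in the controls, so sex differed along with genotype in part, and its part in the results was not tested. None of the members lies on the X or Y chromosome. A fit of mutant 3 alone against the 3 controls gave 65 of 77 higher, against 25.7% of genes tested, but it assumes that a lone mutant varies like the controls, whose spread was far below that of the mutants. Of the defining markers of spleen cell types, 0 were at 0 CPM in any library. The 10 B-cell genes all fell, with a summed level of 51.3 to 108 CPM in mutants and 6563 to 7417 CPM in controls. Of the T-cell genes 5 of 10 fell, and of the stroma genes 6 of 8. Among the markers, 13 of 16 cell cycle genes, 2 of 10 erythroid genes and 3 of 10 neutrophil genes rose. In this fit of 3 mutants against 3 controls, 5.08% of all genes tested rose and 6.9% fell. In such bulk tissue, fewer cells of a type and less RNA per cell cannot be told apart.

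The promoters of 5 members are shown as examples of windows that hold a motif searched for: Mrpl17, Mrpl57, Mrpl35 and Mrpl51 are among the members that rose, and Mrps11 shares its start region with another member. Each window runs from 250 bases before to 50 bases after the annotated start, 5′ to 3′ on the strand of the gene, from RefSeq on GRCm38.p6. Capitals mark matches to 3 motifs of factors known for nuclear genes of mitochondrial proteins: nuclear respiratory factor 1 (its palindromic core, seen in capitals in the Mrpl17 and Mrpl57 windows), the ETS family with GABPA (CCGGAAG) and YY1 (AAGATGGCG).
Mrpl17, chr7:105811038-105811337, minus strand: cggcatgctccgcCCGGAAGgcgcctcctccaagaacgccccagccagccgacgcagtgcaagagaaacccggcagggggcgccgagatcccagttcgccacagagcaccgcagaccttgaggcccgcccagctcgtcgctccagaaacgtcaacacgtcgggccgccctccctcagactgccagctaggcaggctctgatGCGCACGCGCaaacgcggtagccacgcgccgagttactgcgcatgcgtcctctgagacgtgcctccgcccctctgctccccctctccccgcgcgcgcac
Mrpl57, chr14:57825989-57826288, plus strand: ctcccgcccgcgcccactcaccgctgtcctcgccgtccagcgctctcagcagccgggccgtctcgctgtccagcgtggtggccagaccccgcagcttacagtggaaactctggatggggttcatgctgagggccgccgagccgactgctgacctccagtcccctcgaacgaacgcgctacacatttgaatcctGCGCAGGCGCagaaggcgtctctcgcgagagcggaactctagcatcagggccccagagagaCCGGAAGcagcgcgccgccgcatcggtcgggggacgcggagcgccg
Mrpl35, chr6:71823735-71824034, minus strand: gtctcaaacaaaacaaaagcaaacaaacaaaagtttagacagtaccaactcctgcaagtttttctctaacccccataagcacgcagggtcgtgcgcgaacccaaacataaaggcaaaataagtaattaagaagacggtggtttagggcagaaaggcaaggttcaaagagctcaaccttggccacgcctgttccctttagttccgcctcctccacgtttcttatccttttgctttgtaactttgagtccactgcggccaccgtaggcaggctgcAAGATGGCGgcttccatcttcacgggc
Mrpl51, chr6:125191950-125192249, plus strand: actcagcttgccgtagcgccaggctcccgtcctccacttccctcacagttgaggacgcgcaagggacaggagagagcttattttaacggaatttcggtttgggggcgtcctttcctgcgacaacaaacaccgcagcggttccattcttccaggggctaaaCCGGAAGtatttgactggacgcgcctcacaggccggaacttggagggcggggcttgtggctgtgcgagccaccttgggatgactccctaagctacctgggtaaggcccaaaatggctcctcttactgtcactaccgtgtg
Mrps11, chr7:78782881-78783180, plus strand: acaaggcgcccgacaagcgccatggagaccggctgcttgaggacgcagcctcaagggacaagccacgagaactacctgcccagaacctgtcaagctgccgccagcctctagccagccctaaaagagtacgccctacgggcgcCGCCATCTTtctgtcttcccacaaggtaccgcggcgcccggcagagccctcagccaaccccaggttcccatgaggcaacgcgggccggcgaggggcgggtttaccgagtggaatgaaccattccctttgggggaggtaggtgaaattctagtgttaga
The Mrpl17 and Mrpl57 windows each held the nuclear respiratory factor motif and an ETS motif. Mrpl51 held an ETS motif, and Mrpl35 and Mrps11 held the YY1 motif, the latter on the opposite strand.

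A promoter window was listed for 68 of the 77 members, and both strands were searched. The YY1 motif was in 11.8% of the member windows and in 2.66% of the windows of 12697 genes tested. The nuclear respiratory factor motif was in 19.1% against 8.99%, and the ETS motif in 33.8% against 16%. At least 1 of these 3 motifs was present in 38 member windows, with 0 overlaps between matches of different motifs. The E-box CACGTG, the letters bound by MYC and its partner, was in 7.35% of member windows and 9.47% of all, and the GC box GGGCGG in 50.0% and 59.1%. Of the 8 members that rose, 3 held the YY1 motif (Mrpl35, Mrpl42 and Mrps24), 3 an ETS motif and 2 the nuclear respiratory factor motif. Mrpl20 and Mrps36, the members with the smallest p, held none of these 3. These are matches of letters and not measured binding.

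Each of the 8 members that rose had all 3 mutants above all 3 controls. Mrpl20 (ENSMUSG00000029066, chromosome 4, 155802878 to 155809975), a large-subunit protein with a bacterial homologue, was at 66.4, 51.1 and 59.0 CPM in mutants 1, 2 and 3 and at 33.6, 29.6 and 27.6 CPM in controls 1, 2 and 3. It rose by 0.96 ± 0.18 on the log2 scale (fitted log2 fold change ± SE, adjusted p = 0.0249), the smallest p of any member. The lowest mutant, mutant 2, was well above the highest control.

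Mrps36 (ENSMUSG00000061474, chromosome 13, 100735955 to 100744659), the member now placed in the dehydrogenase complex, was at 18.04, 18.3 and 22.8 CPM in the mutants and at 8.73, 9.75 and 9.83 CPM in the controls. It rose by 1.07 ± 0.22 on the log2 scale (adjusted p = 0.0304), the largest fold change among those that passed. Unlike most members it stood as high in mutant 2 as in mutant 1. Its processed pseudogenes Mrps36-ps1 and Mrps36-ps2 had 0.139 to 0.795 and 0.0130 to 0.151 CPM, and reads shared with such copies cannot be traced from the counts.

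Mrpl42 (ENSMUSG00000062981, chromosome 10, 95480805 to 95501940), a large-subunit protein found only in mitochondria, was at 87.7, 55.8 and 69.0 CPM in the mutants against 37.1, 39.0 and 35.5 in the controls (log2 0.93 ± 0.20, adjusted p = 0.0337). Mrpl35 (ENSMUSG00000052962, chromosome 6, 71812997 to 71826969), with a bacterial homologue, was at 34.7, 29.6 and 43.6 CPM against 18.3, 20.95 and 19.1 (log2 0.89 ± 0.19, adjusted p = 0.0373). The order of the mutants differed between these genes, mutant 1 being highest for Mrpl42 and mutant 3 for Mrpl35, while mutant 2 was lowest for both.

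Mrpl51 (ENSMUSG00000030335, chromosome 6, 125191801 to 125196269), also specific to mitochondria, was at 96.4, 53.3 and 82.3 CPM in mutants and 39.9, 39.2 and 36.05 in controls (log2 1.01 ± 0.23, adjusted p = 0.0409). Mrpl17 (ENSMUSG00000030879, chromosome 7, 105803206 to 105811099), whose bacterial homologue lies near the exit of the peptide tunnel, was at 104 CPM in mutant 1, 60.6 in mutant 2 and 80.2 in mutant 3 against 44.8, 41.0 and 42.3 (log2 0.94 ± 0.21, adjusted p = 0.0410). In both genes mutant 2 lay between the controls and the other two mutants.

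Mrps24 (ENSMUSG00000020477, chromosome 11, 5703983 to 5715680), the counterpart of a bacterial protein at the entry of the mRNA, was the only ribosomal member of the small subunit to pass, at 71.7, 56.4 and 71.1 CPM against 42.003, 43.2 and 39.4 (log2 0.68 ± 0.16, adjusted p = 0.0435). Urgcp overlaps 15.4% of its exon length on the same strand. Mrpl57 (ENSMUSG00000021967, chromosome 14, 57826234 to 57829296), specific to mitochondria, had the largest adjusted p of the 8, at 69.0, 45.1 and 62.5 CPM against 34.7, 31.7 and 25.2 (log2 0.95 ± 0.22, adjusted p = 0.0464). Just outside the threshold was Mrpl18, with a bacterial homologue, at 75.4, 45.6 and 61.9 CPM against 36.1, 34.5 and 31.7 (log2 0.84 ± 0.21, adjusted p = 0.0528).

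**Figure D1:**
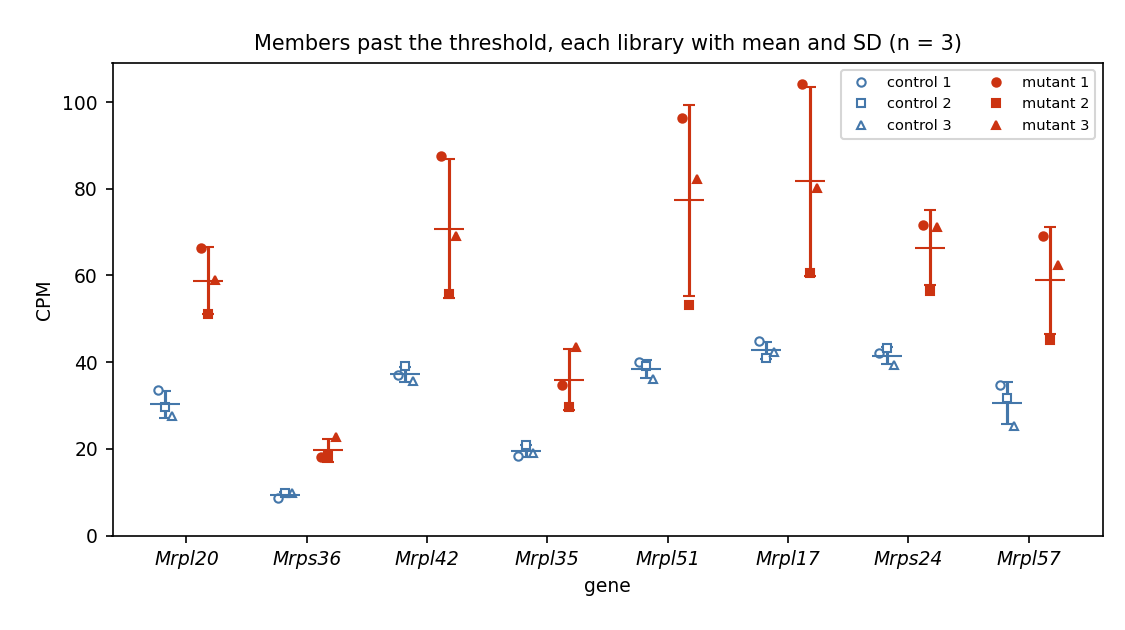
CPM of the 8 members that passed the threshold, with 1 point per library, horizontal bars for the mean of each group and error bars for the SD (n = 3). All mutant points (filled) lie above all control points (open) of the same gene, and mutant 2 (square) is the lowest mutant except in Mrps36.

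These calls depended on which libraries and which scaling were used. Without control 1, 2 or 3, edgeR called 0 members in either direction, and calls over all genes fell to 0.0294%, 0.0195% and 0.0392% higher. In these fits 12, 14 and 12 members had an unadjusted p under 0.05. The matching shares of all genes were not computed. Without mutant 2, 41 members rose, against 13.6% of all genes. Without mutant 3, 2 rose (Mrpl20 and Mrps36), against 4.28% of all genes, and without mutant 1, 10 rose, against 8.73%. In all of these fits 0 members fell, and 71 to 76 of the 77 had a log2 fold change above 0.

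The 77 members lay mostly above the control mean, to different extents in the 3 mutants. Relative to the control mean, their median log2 ratios were 0.72, 0.16 and 0.56 in mutants 1, 2 and 3, where the medians over all genes tested were -0.05, -0.02 and -0.02. In mutant 1, 75 members were above the control mean, in mutant 3 74 and in mutant 2 55. On log2 CPM with normalization factors applied, all 3 mutants lay above all 3 controls for 46 members, which is 59.7% of them, against 19.4% of genes tested. On that scale all 3 mutants lay below for 1 member, Mrpl37, against 22.9%, and for 30 the groups overlapped. In CPM without these factors, all 3 mutants lay above for 39 members (50.6%, against 18% of genes tested) and below for 0 (against 22.6%), and for 38, Mrpl37 among them, the groups overlapped.

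Mutant 2 was the lowest of the mutants, in CPM, for 73 of the 77 members. In CPM without normalization factors, mutant 2 was above all controls for 39 members and below all controls for 23. On that scale mutant 1 was above all controls for 73 and mutant 3 for 74. Mutant 2 had the lowest normalization factor, 0.938, so it stands lower against the controls in CPM than after scaling. The matching shares of all genes tested were not computed, so these counts describe the members alone. The summed level of the members was 4163, 2542 and 3825 CPM in mutants 1, 2 and 3 and 2449, 2480 and 2480 CPM in controls 1, 2 and 3. The sum in mutant 2 thus exceeded the highest control only slightly, while the controls differed from each other by very little. The median coefficient of variation of a member was 4.73% among controls and 25.6% among mutants.

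**Figure D2:**
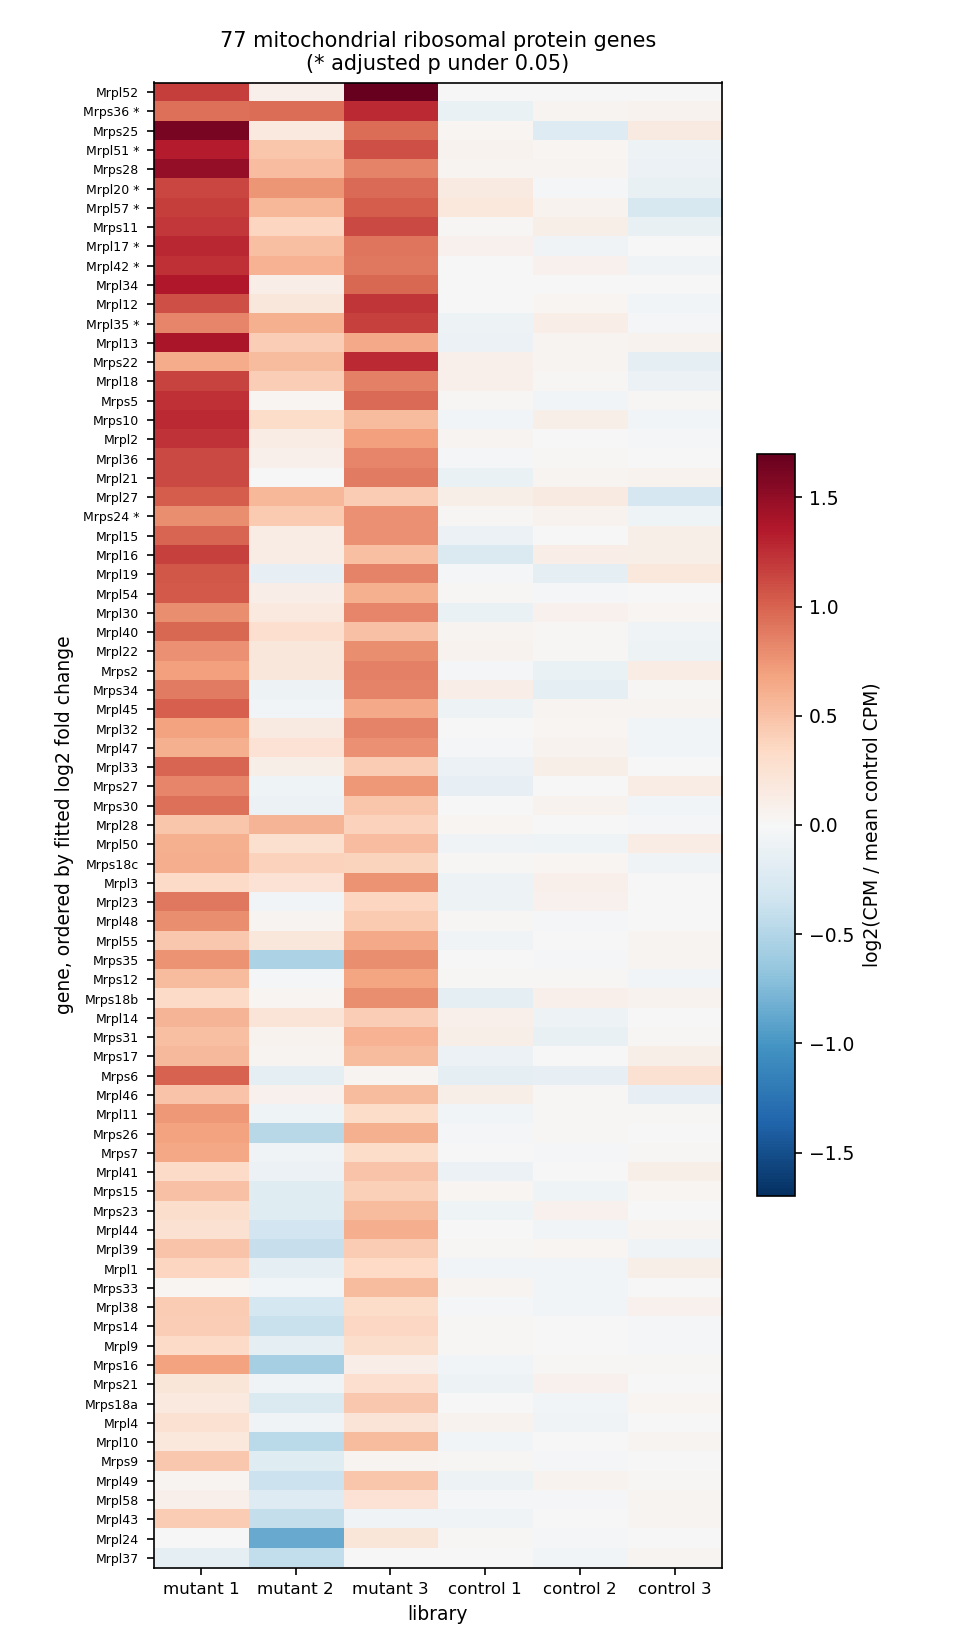
Log2 of CPM over the mean control CPM for 77 members (vertical axis, ordered by fitted log2 fold change) in each of 6 libraries (horizontal axis), with an asterisk for an adjusted p under 0.05. Red fills most of the mutant 1 and mutant 3 columns, mutant 2 is red at the top and blue at the bottom, and the control columns are near white.

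**Figure D3:**
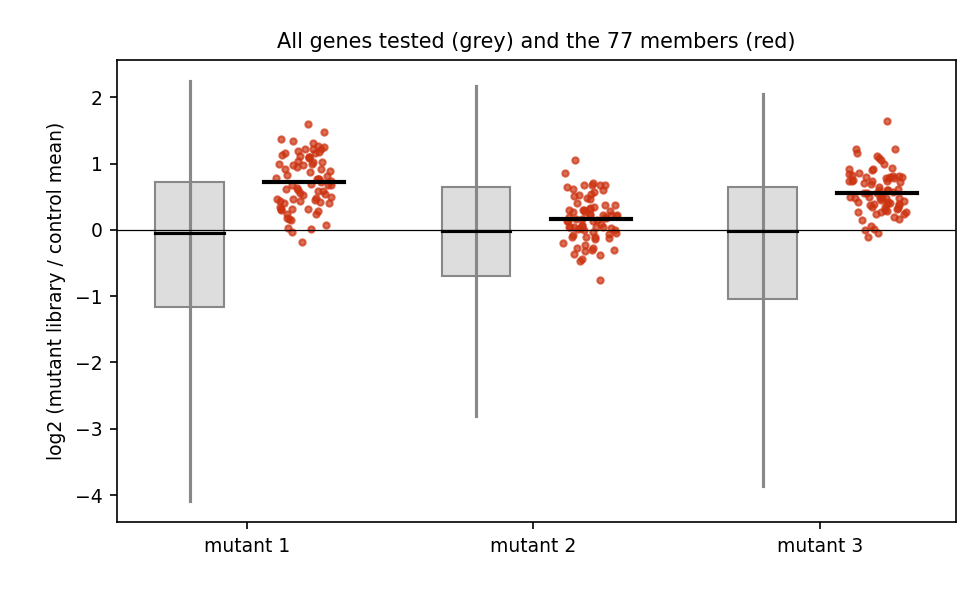
Log2 ratio of each mutant library to the control mean, with normalization factors applied, for all genes tested (grey box from the 25th to the 75th percentile, whisker from the 5th to the 95th, black line the median) and for the 77 members (red points, black line the median of 0.72, 0.16 and 0.56 in mutants 1, 2 and 3). The members spread far less than all genes and sit mostly above 0 in mutants 1 and 3.

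The cell cycle genes ranked the mutants differently. Their summed level was 3406, 5676 and 4255 CPM in mutants 1, 2 and 3, against 1056 to 1613 in controls, so mutant 2 was highest there and lowest for the ribosomal members. The erythroid markers summed to 5175, 48324 and 3866 CPM in the mutants and 52515 to 82360 in controls, where haemoglobin transcripts made up most of the sum, whereas 7 of the 10 had a log2 fold change above 0 and their median was 1.69. The granulocyte markers summed to 558, 2480 and 1384 CPM against 228 to 390. In mutant 1, 3 of these 10 were above the control mean and the median log2 ratio was -1.60, while Prtn3 alone was at 416 CPM. Red pulp macrophage markers were at 702, 4974 and 814 CPM against 1014 to 1401. The part of these cell types in the members' levels was not tested.

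Over the 3 mutants together, the median fold change was higher for large-subunit than for small-subunit members, but not in mutant 3 alone. Of 50 members of the large subunit, 6 rose (12%, against 5.08% of all genes) and the median log2 fold change was 0.56. Of 26 members of the small subunit, 1 rose (3.85%, a share near that of all genes) and the median was 0.42. Median log2 ratios to the control mean in mutants 1, 2 and 3 were 0.78, 0.20 and 0.53 for the large subunit. For the small subunit they were 0.65, 0.058 and 0.56. On scaled log2 CPM the mutants lay above all controls for 31 (62%) and 14 (53.8%) of them, against 19.4% of all genes. The ratio of the summed CPM of the large to the small subunit was 2.33, 2.41 and 2.38 in mutants 1, 2 and 3 and 2.23, 2.23 and 2.21 in the controls, higher in each mutant than in any control. The difference between the subunits was not tested.

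Within the large subunit, the 29 members with a bacterial homologue had a median of 0.63 and 3 that rose, and the 21 specific to mitochondria a median of 0.45 and 3 that rose. In the small subunit the medians were 0.41 for the 16 with a bacterial homologue, of which 1 rose, and 0.43 for the 10 specific to mitochondria. With classes this small, shares of 10.3%, 14.3%, 6.25% and 0%, in the order given, are read against the 5.08% of all genes as descriptions only. Of the small-subunit members specific to mitochondria, edgeR passed 0, limma-voom passed 0 and DESeq2 passed 2. By edgeR 2 (20%) had an unadjusted p under 0.05, against 31.2% of all genes tested. DESeq2 called 14.5% of all genes higher. With mutant 2 left out, 16, 10, 9 and 5 members of these 4 classes rose in the same order, against 13.6% of all genes.

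The stalk of the large subunit brings translation factors to the ribosome. Mrpl12, the stalk protein, which also binds mitochondrial RNA polymerase, was at 40.0, 21.4 and 43.2 CPM in the mutants and 18.8, 19.1 and 18.1 in the controls (log2 0.89 ± 0.27, adjusted p = 0.0831). Mrpl10, at the base of the stalk, was at 43.0, 27.7 and 55.1 CPM against 36.9, 38.0 and 39.2 (log2 0.14 ± 0.24, adjusted p = 0.735). Mrpl11, its neighbour at the base, was at 64.4, 36.7 and 47.9 CPM against 37.4, 38.9 and 39.2 (log2 0.37 ± 0.22, adjusted p = 0.301). None of the 3 passed. In CPM, mutant 2 lay above the controls for Mrpl12 but below them for Mrpl10 and Mrpl11. With normalization factors applied, its log2 ratio to the control mean was -0.36 for Mrpl10 and 0.027 for Mrpl11.

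Mrps12, part of the decoding centre, was at 43.0, 29.0 and 47.1 CPM in mutants against 30.03, 30.001 and 28.7 in controls (log2 0.42 ± 0.20, adjusted p = 0.214). Mrpl45, which faces the inner membrane, was at 88.3, 42.5 and 68.4 CPM against 41.0, 45.1 and 45.0 (log2 0.60 ± 0.26, adjusted p = 0.175). Mrpl44, a protein with the fold of a bacterial ribonuclease, was at 30.2, 20.1 and 38.6 CPM against 25.05, 24.4 and 26.0 (log2 0.23 ± 0.24, adjusted p = 0.548). In Mrpl44 and Mrpl45 mutant 2 overlapped or lay below the controls while mutants 1 and 3 lay above them.

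Mrpl58, a release factor that frees peptides from stalled ribosomes, was at 33.7, 27.3 and 37.6 CPM in mutants against 31.2, 31.1 and 32.6 in controls (log2 0.06 ± 0.17, adjusted p = 0.842). Its fitted change was close to 0, and it turned negative (log2 -0.043) with upper-quartile scaling. Mrps30, a large-subunit protein despite its symbol, was at 46.2, 22.5 and 33.5 CPM against 23.8, 25.1 and 23.2 (log2 0.50 ± 0.27, adjusted p = 0.260).

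The 3 homologues of 1 bacterial small-subunit protein, Mrps18a, Mrps18b and Mrps18c, did not pass. In the classes above, only Mrps18c was counted as having a bacterial homologue. Mrps18a and Mrps18b were counted as specific to mitochondria. Mrps18c, the one in the ancestral position, was at 22.6, 19.3 and 19.1 CPM in mutants and 14.95, 15.1 and 14.2 in controls (log2 0.47 ± 0.20, adjusted p = 0.164), without overlap between the groups. Mrps18b was at 14.2, 11.6 and 19.5 CPM against 10.1, 12.02 and 11.8 (log2 0.42 ± 0.26, adjusted p = 0.318), and an antisense gene overlaps 30.5% of its exon length. Mrps18a, of the large subunit, was at 36.5, 27.4 and 44.4 CPM against 32.4, 31.5 and 33.3 (log2 0.16 ± 0.20, adjusted p = 0.625), with mutant 2 below every control.

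Levels were compared between members per kilobase of annotated exon. Mrpl52 was highest in controls at 66.1 CPM per kb, followed by Mrps21 at 53.1 and Mrpl34 at 43.6, and the lowest were Mrpl33 at 2.43, Mrps25 at 2.33 and Mrps22 at 2.33. In controls Mrps25 and Mrps22 differed by less than their spread (SD 0.294 and 0.204 CPM per kb, n = 3). The order rests on the length used: by the median length of protein-coding transcripts, chosen after seeing the data, Mrpl52 and Mrps21 remained at ranks 1 and 2 while Mrpl34 came to rank 19 and Mrpl33 to rank 28 of 77.

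The most abundant member was also the one that varied most among mutants. Mrpl52 (ENSMUSG00000010406, chromosome 14, 54426909 to 54429756), a mitochondria-specific protein of the large subunit, was at 165, 78.1 and 237 CPM in mutants 1, 2 and 3 and at 73.6, 72.8 and 73.6 CPM in controls. Its 3 controls were nearly equal, and mutant 2 stood just above them. The log2 fold change of 1.11 ± 0.36 was the largest of any member and did not pass (adjusted p = 0.0977). Its share of the members' summed CPM was 3.96%, 3.07% and 6.20% in the mutants and 2.94% to 3.01% in the controls.

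The next gene on the same strand, named after its values were seen, is Mmp14, a membrane-bound matrix protease that starts 1855 bases beyond the end of Mrpl52. Mmp14 was at 166, 58.7 and 169 CPM in the mutants and 39.1, 43.4 and 42.2 CPM in the controls, and it rose (log2 1.65 ± 0.38, adjusted p = 0.0446). Both genes were thus highest in mutants 1 and 3. The relation between the 2 genes was not tested.

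Mrps35 and Mrps25 came next in spread among mutants. Mrps35, a mitochondria-specific small-subunit protein, was at 52.9, 21.5 and 53.8 CPM in mutants against 31.0, 30.4 and 32.1 in controls (log2 0.44 ± 0.33, adjusted p = 0.409), so mutant 2 was below and the others above every control. Mrps25 was at 46.8, 17.2 and 29.7 CPM against 15.8, 13.2 and 17.0 (log2 1.02 ± 0.36, adjusted p = 0.116), and Nr2c2 on the opposite strand overlaps 69.8% of its exon length. Mrpl34, with a bacterial homologue, was at 67.8, 28.7 and 52.2 CPM against 26.3, 26.5 and 26.6 (log2 0.90 ± 0.30, adjusted p = 0.104).

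Mrps22, a small-subunit protein whose loss impairs the respiratory chain in patients, was at 14.4, 13.5 and 22.3 CPM in mutants against 9.89, 9.61 and 8.37 in controls (log2 0.85 ± 0.28, adjusted p = 0.0961). Mrpl33, one of the smallest ribosomal proteins, was at 35.5, 19.0 and 23.9 CPM against 16.5, 19.0 and 17.8 (log2 0.56 ± 0.26, adjusted p = 0.203). Neither passed. The mutants lay above the controls for both, by a wide margin for Mrps22 and a very narrow one for Mrpl33, at 19.04 CPM in mutant 2 and 18.99 in control 2.

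The members with the smallest spread among mutants were Mrpl4, Mrps21 and Mrpl50. Mrpl4, with a bacterial homologue that lines the peptide tunnel, was at 77.2, 62.3 and 75.3 CPM in mutants and 67.3, 61.9 and 65.0 in controls (log2 0.15 ± 0.15, adjusted p = 0.521). Mrps21 was at 45.1, 37.7 and 48.0 CPM against 37.0, 41.2 and 39.5 (log2 0.16 ± 0.16, adjusted p = 0.532). Mrpl50 was at 30.7, 24.4 and 29.2 CPM against 19.5, 19.3 and 22.03 (log2 0.48 ± 0.17, adjusted p = 0.123), with no overlap. For Mrpl4 and Mrps21 the groups overlapped.

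The 2 members with a fitted log2 fold change below 0 were Mrpl37 and Mrpl24, named after their values were seen. Mrpl37, specific to mitochondria, was at 57.1, 48.0 and 64.1 CPM in mutants and 64.1, 62.6 and 66.3 in controls (log2 -0.18 ± 0.15, adjusted p = 0.444). Mrpl24, with a bacterial homologue, was at 68.1, 38.0 and 79.1 CPM against 69.4, 67.9 and 68.8 (log2 -0.16 ± 0.26, adjusted p = 0.704). Among the members Mrpl24 had the second largest share of the controls' summed CPM, 2.78% at the mean, and its share was 1.64%, 1.49% and 2.07% in the mutants.

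The position of the members in the genome set them beside other genes. They lie on 17 chromosomes, most often on chromosome 11 with 11 and chromosome 17 with 8. A protein-coding gene on the opposite strand starts within 1000 bases of the start of 33 members (42.9%), against 14.6% of 14951 protein-coding genes tested. One such pair joins members: Mrpl46 and Mrps11 start 412 bases apart and share 173 bases of exon on opposite strands. Mrps11 was at 42.4, 23.6 and 40.1 CPM in mutants against 18.6, 19.7 and 16.8 in controls (log2 0.94 ± 0.25, adjusted p = 0.0611), and Mrpl46 at 25.4, 19.0 and 26.3 against 19.5, 18.4 and 16.5 (log2 0.38 ± 0.20, adjusted p = 0.257).

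Of 32 opposite-strand neighbours that were tested, counting Mrpl46 and Mrps11 for each other, 6 rose (18.8%) and 0 fell by edgeR, against the same 5.08% and 6.9%. The 6 were Ncapd2, a condensin subunit beside Mrpl51, Ska3, a kinetochore gene beside Mrpl57, Eme1, an endonuclease gene of recombination beside Mrpl27, Rab6a, a Golgi GTPase beside Mrpl48, Tcp1, a chaperonin subunit beside Mrpl18, and Psma2, a proteasome subunit beside Mrpl32. Their log2 fold changes were 1.49, 1.75, 1.77, 0.90, 0.88 and 0.60 in that order. The median over the neighbours was 0.27, with 10 below 0, so fewer of them lay above 0 than of the members. Exons of Mrpl18, Mrpl27 and Mrpl48 overlap those of Tcp1, Eme1 and Rab6a by 141, 75 and 708 bases, and the strand setting of the counting is not given.

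**Figure D4:**
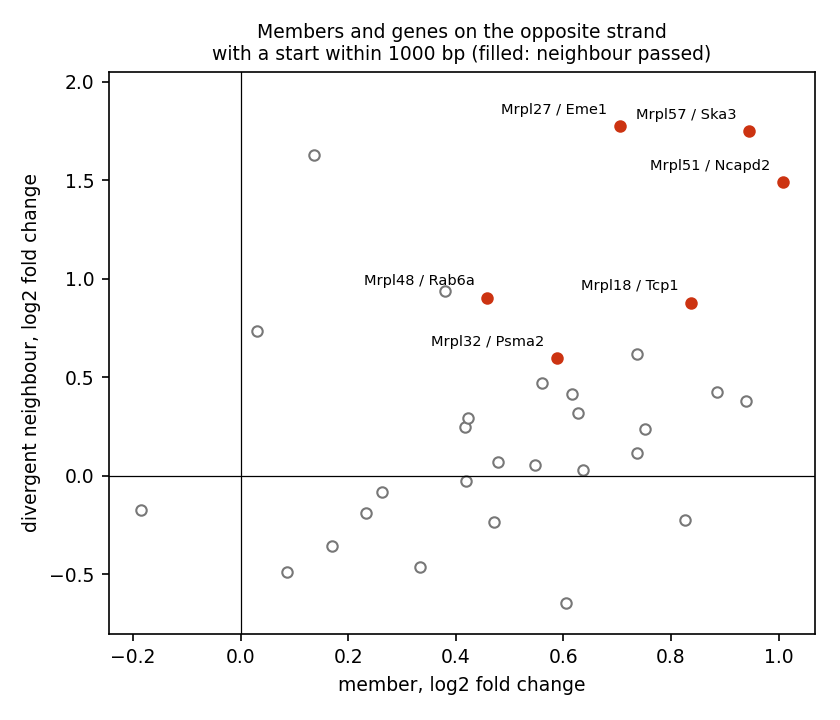
Fitted log2 fold change (mutant over control) of members with an opposite-strand neighbour that starts within 1000 bases (horizontal axis) and of that neighbour (vertical axis), 1 point per member. The 6 neighbours that passed (filled, named) lie between 0.60 and 1.77.

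Genes that build and serve this ribosome included some that rose and some that fell. The 5 mitoribosomal proteins with other symbols (Dap3, Ptcd3, Chchd1, Aurkaip1 and Gadd45gip1) had a median log2 fold change of 0.33, and 5 of 5 were above 0. By edgeR 0 passed and 1 (20%) had an unadjusted p under 0.05, against 31.2% of all genes tested. DESeq2 and limma-voom each passed 0. Chchd1, a small-subunit protein, was at 48.3, 23.4 and 40.0 CPM in mutants against 22.2, 21.7 and 22.4 in controls (log2 0.75 ± 0.27, adjusted p = 0.119), with mutant 2 close to the controls.

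Of 25 assembly factors, 2 rose (8%) and 1 fell (4%), near the 5.08% and 6.9% of all genes, and the median was 0.12. C1qbp, a matrix protein that binds mitochondrial RNA and supports translation, was at 226, 128 and 216 CPM against 88.6, 92.6 and 94.2 (log2 1.05 ± 0.22, adjusted p = 0.0346), and Rbfa, an assembly factor of the small subunit, was the other that rose (log2 0.996 ± 0.24, adjusted p = 0.0469). Mettl17, a methyltransferase-like factor of small-subunit assembly, fell from 90.8, 88.9 and 88.1 CPM in controls to 42.9, 29.5 and 26.7 in mutants (log2 -1.43 ± 0.22, adjusted p = 0.0165). Every mutant lay far below the lowest control for Mettl17.

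Of 15 translation factors, edgeR passed 0 in either direction. It had 4 (26.7%) with an unadjusted p under 0.05, against 31.2% of all genes tested. Limma-voom passed 0, and DESeq2 passed 1 higher and 1 lower, against 14.5% and 14.4% of all genes. The median was 0.22, and the smallest p belonged to Gfm1, an elongation factor, at 48.0, 51.0 and 55.9 CPM against 32.2, 37.4 and 35.1 (log2 0.58 ± 0.16, adjusted p = 0.0696). Of 20 genes that charge mitochondrial tRNAs, 2 rose (10%) and 0 fell, against 5.08% and 6.9% of all genes. Their median was 0.35. Lars2, for leucine, was at 195, 78.2 and 227 CPM against 43.7, 50.1 and 60.8 (log2 1.68 ± 0.38, adjusted p = 0.0406). Mutant 2 was the lowest mutant for Lars2 and still above every control.

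Import and chaperone genes had the highest median of these lists, 0.77, with 3 of 12 higher (25%, against 5.08% of all genes). The mutants lay above all controls for all 12 on scaled log2 CPM and for 9 in CPM. The shares of all genes tested were 19.4% and 18%. Timm23, the channel of the inner membrane, was at 61.0, 48.4 and 70.0 CPM against 32.5, 31.8 and 33.4 (log2 0.88 ± 0.17, adjusted p = 0.0275). Hspd1, the matrix chaperonin, was at 315, 204 and 347 CPM against 138, 140 and 140 (log2 1.05 ± 0.21, adjusted p = 0.0304), and Tomm70a, an import receptor, was the third (log2 0.80 ± 0.19, adjusted p = 0.0468).

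Genes that keep and transcribe mitochondrial DNA had a median of -0.25. Of these 9, 0 rose and 1 fell (11.1%), against 5.08% and 6.9% of all genes. Polg2, the accessory subunit of the mitochondrial DNA polymerase, fell from 15.8, 18.02 and 17.9 CPM to 7.65, 8.95 and 9.34 (log2 -0.98 ± 0.23, adjusted p = 0.0444). Tfam, which packages mitochondrial DNA, was at a mean of 68.4 CPM in controls and 50.1 in mutants (adjusted p = 0.258). The mitochondrially encoded transcripts were not analysed here, as 0 of the matched identifiers were mitochondrial.

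Among 9 regulators of nuclear mitochondrial genes, 1 fell (11.1%) and 0 rose, against 6.9% and 5.08% of all genes. Nrf1, nuclear respiratory factor 1, was at 56.9, 73.3 and 63.8 CPM in mutants against 55.6, 60.2 and 57.2 (log2 0.18 ± 0.18, adjusted p = 0.535). Gabpa, a factor of the ETS family, was at 42.6, 43.4 and 49.6 CPM against 41.4, 36.6 and 42.1 (log2 0.19 ± 0.16, adjusted p = 0.461). Both stayed within a narrow range, and mutant 2 was not the lowest mutant for either. The part of Nrf1 and Gabpa in the members' levels was not tested.

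Myc, a regulator of growth genes, was at 454, 88.7 and 441 CPM in mutants 1, 2 and 3 and at 83.8, 85.5 and 99.1 CPM in controls (log2 1.86 ± 0.57, adjusted p = 0.0854). It was high in mutants 1 and 3 and at the control level in mutant 2, the order seen in the members' summed level of 4163, 2542 and 3825 CPM, and its part in their levels was not tested. Ppargc1a, a coactivator of mitochondrial genes with little transcript in any library, had 0, 4 and 2 counts in mutants and 141, 136 and 203 in controls, and it fell (adjusted p = 0.0158). Scaled to the library totals, counts in controls were 77.6 times those in mutants, and exact 95% limits for counting error alone run from 35.4 to 212. Ppargc1b, its relative, was at 2.39, 4.92 and 7.93 CPM against 3.49, 4.52 and 4.33 (log2 0.31 ± 0.49, adjusted p = 0.699).

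**Figure D5:**
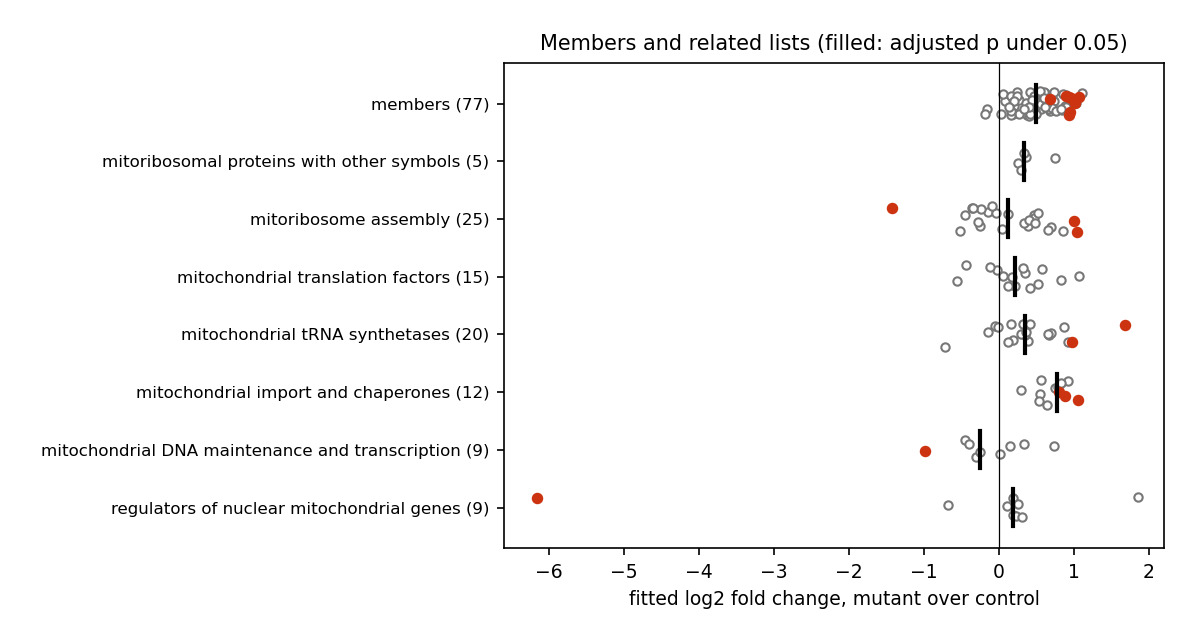
Fitted log2 fold change (mutant over control) of each tested gene in the members and in 7 related lists, with the number of genes in brackets, filled points for an adjusted p under 0.05 and a black bar for the median. Medians run from -0.25 for mitochondrial DNA maintenance and transcription to 0.77 for import and chaperones, with 0.49 for the members.

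The cytosolic ribosome was set beside the mitochondrial one as the closest family. Of 87 protein-coding genes with Rpl or Rps symbols, the S6 kinase genes left out, 84 were tested. Of these 2 rose (2.38%) and 1 fell (1.19%), against 5.08% and 6.9% of all genes, and the median log2 fold change was 0.41. Their median log2 ratios to the control mean were 0.76, -0.39 and 0.58 in mutants 1, 2 and 3, against 0.72, 0.16 and 0.56 for the mitochondrial members. On scaled log2 CPM the mutants lay above all controls for 8 of the 84 (9.52%) and for 46 of the 77 mitochondrial members (59.7%). The share of all genes tested was 19.4%. For each 100 CPM of cytosolic ribosomal protein genes there were 3.16, 4.69 and 3.33 CPM of members in mutants 1, 2 and 3 and 3.31, 3.34 and 3.20 in controls, so only mutant 2 lay outside the control range upward. The difference between the families was not tested.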

How the data were processed

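Per the labels' protocols, strand-marking poly-A libraries were made from 50 ng of RNA per spleen piece. The authors deposited whole-number counts per Ensembl gene, without normalization. Per the submitters' processing notes, which assign no roles, the tools were STAR 2.5.3a and limma and the builds GRCm38 and mm10. The annotation release, strand setting and handling of shared reads are unstated in the sources used here, so overlapping genes, which touch 32 of the 77 members, and pseudogene copies cannot be separated. Each column matched 1 sample title, 0 columns were left without a sample, and 31669 of 31771 identifiers matched GENCODE M21.

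CPM are counts scaled to the library total. The test was edgeR 4.0.16 in R 4.3.3 (TMM factors, expression filter by group, robust quasi-likelihood fit, Benjamini-Hochberg adjustment over 19573 genes), 3 mutants against 3 controls without covariates. SE equals the size of the log2 fold change over the root of F, and log2 ratios per library use a prior count of 2. Nothing pairs the animals. The p-values set the difference between the groups against the spread between these samples only. For each gene the test assumes the same spread in both groups, whereas over all genes it was 73.2% among mutants and 17.1% among controls. Alternatives were other scalings, DESeq2 1.42.0, limma-voom (limma 3.58.1), other filters and left-out libraries. The procedure was run on simulated counts that gave both groups the same spread. That differs from these data, so the simulation cannot show how the test behaves here. Members and lists were chosen with earlier results of these data known. Genes were named by p (8 in each direction), by level and by spread (3 at each end), by nearness to the threshold, by role, and for each related list by the smallest p. Rbfa, Tomm70a, Tfam, Mrpl46, Mrps11 and the neighbouring genes were named after their values were seen. The values of 1 gene that this rule names are not reported here.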

Additional observations from a re-analysis of the deposited data

How the results depend on the processing

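The number of members that rose, 8, was 8 or 9 with relative log expression factors, limma-voom, a filter of CPM of at least 1 in at least 3 samples, or haemoglobin and immunoglobulin genes left out. It was 2 with upper-quartile factors (3.78% of all genes higher), 3 with library totals alone (4.51%), 3 with no filter on low counts (2.46%), 1 by limma-voom with sample weights by group (3.57%), 29 by DESeq2 (14.5%) and 65 with only the libraries without expressed Xist (25.7%). With each library left out in turn it ranged from 0 to 41, the 0 arising without any single control and the 41 without mutant 2. The cause of these shifts was not tested. In all 16 alternatives 0 members fell, and the median log2 fold change kept its direction, from 0.39 (upper-quartile factors) to 0.66 (without mutant 2). Upper-quartile factors moved the median of all genes from 0.10 to 0.0028. Reversed signs were limited to Mrpl58 (log2 -0.043 with upper-quartile factors, and -0.018 to 0.14 with 1 library left out, the lowest without mutant 3) and Mrpl10 (-0.076 to 0.33 with 1 library left out, the lowest without mutant 3) among the 29 named members, none of which had passed. No paired analysis was possible because the labels give no numbers that tie a mutant to a control.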

Other observations

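Pseudogene copies of the members were measured as well. Mrpl23-ps1 was at 7.13 CPM in mutant 1, 3.20 and 3.06 CPM in mutants 2 and 3, and 3.29 to 3.39 CPM in controls, while its parent Mrpl23 was at 60.3, 31.1 and 41.6 CPM in the mutants and 30.3, 33.98 and 32.6 CPM in controls 1, 2 and 3. Mrpl48-ps stayed between 0.295 and 0.933 CPM in all 6 libraries.

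Among members, Mrpl28 was the 1 gene highest in mutant 2, at 58.9 CPM against 54.5 and 51.5 CPM in mutants 1 and 3 and 38.6 to 40.3 CPM in controls (edgeR adjusted p = 0.103). It was picked out after its values were seen.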
